A study of Mus musculus with 8 samples.

Results

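The genes described here are the matrix metalloproteinases (Mmp), the ADAMTS proteases with their non-catalytic ADAMTS-like relatives (Adamts, Adamtsl) and the tissue inhibitors of metalloproteinases (Timp), read in mouse thoracic aorta with and without Fto. Members were taken by gene symbol among the array's probes that carry a RefSeq transcript, which gave 50 genes with 66 probes, of 21364 genes named in this way. The reference gene table held 51 such genes, and Mmp27 had no probe named through it. RNA came from 4 Fto -/- and 4 Fto +/+ samples, each read on 1 single-colour Agilent array, to ask how loss of Fto, an RNA demethylase, changes expression in the vessel. All samples were labelled male and of a C57BL6J/NMRI background, and neither group is described as treated. The labels give no age and do not say how Fto was deleted. Whether each sample came from its own mouse is unstated, and the p-values cover just the spread among these 8 samples.

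Matrix metalloproteinases are zinc enzymes, made as inactive precursors, that cut collagens, elastin and other matrix proteins. ADAMTS enzymes are secreted zinc proteases that trim proteoglycans and procollagens, while ADAMTS-like proteins lack the protease domain and bind matrix such as fibrillin microfibrils. TIMPs block these enzymes. In the aorta the balance of the 3 families is known for its part in the upkeep of elastic lamellae and in aneurysm.

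The Fto probe was lower in every Fto -/- sample, at -2.51 ± 0.24 against 0.57 ± 0.21 (SD, n = 4 each; log2 intensity relative to the 75th percentile of the array, the scale of every level below). An exact permutation test, two-sided, gave p = 0.0286, which is the minimum for 4 against 4. The labels do not place this probe inside or outside the deletion. Title and genotype fields, which define the groups, are contradicted by the free-text descriptions, where the genotypes are exchanged. Xist, the RNA of the inactive X chromosome, was well above background on all 8 arrays (both probes), and Ddx3y, Kdm5d and Eif2s3y of the Y chromosome on 0, against the male label. Of the Y-linked gene Uty, 1 probe was above background on 1 array (highest intensity 208) and the other on 0. Smooth muscle, endothelial and adventitial fibroblast markers (7 of 7 genes each) were detected. The thymocyte gene Rag1 was well above background on 4 arrays, Fto -/- replicates 1, 3 and 4 and Fto +/+ replicate 2. In such bulk tissue, fewer cells of a type and less RNA per cell cannot be told apart.

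Of the 50 genes, 25 were detected, meaning that a probe was well above background, a call of the scanner software, on at least 4 of the 8 arrays. That is 50%, beside 61.1% of all named genes. All 4 TIMPs and all 5 ADAMTS-like genes were detected, against 9 of 19 ADAMTS genes and 7 of 22 MMP genes. Another 20 genes were well above background on 0 arrays, with 25 probes at intensities of 5.55 to 37.5. The remaining 5 were on 1 array each: Adamts4, Mmp15 and Mmp24 on an Fto -/- array, and Adamts12 and Adamts17 on an Fto +/+ array. A dim probe gives only an upper bound, so these genes were not detectable here rather than shown to be absent.

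**Figure D1:**
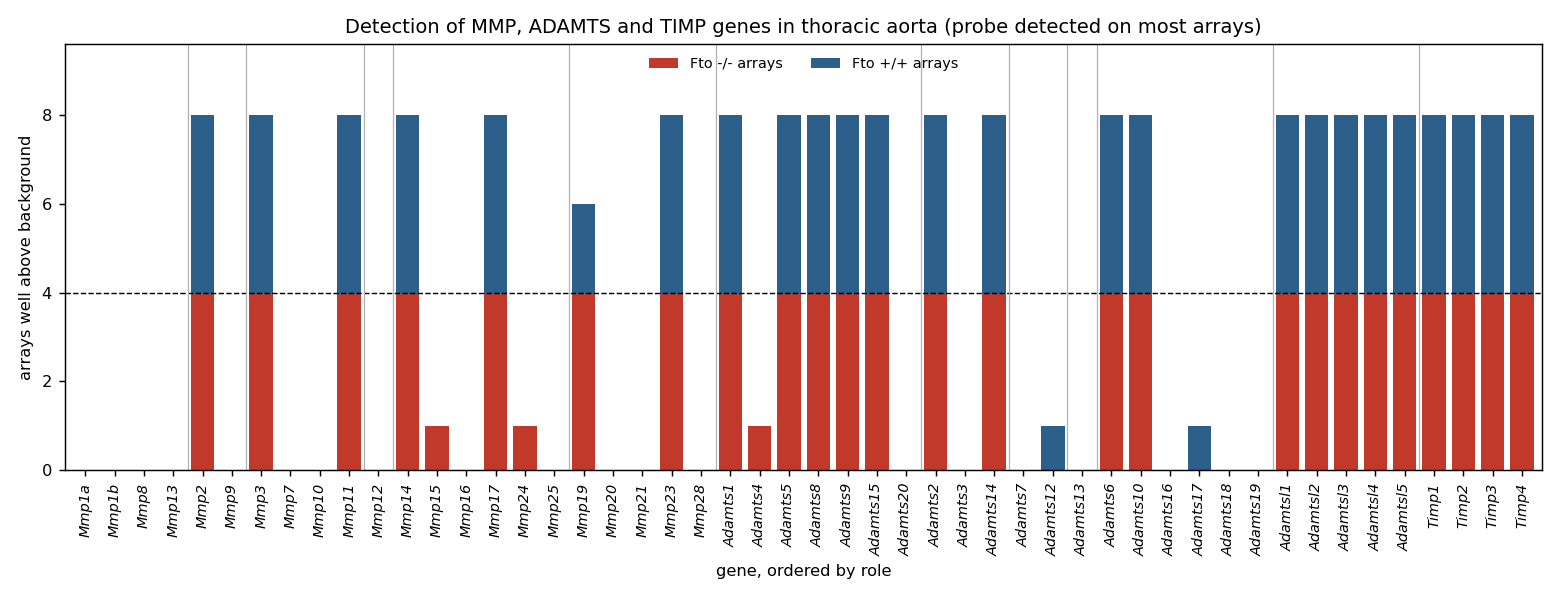
Number of arrays (of 8) on which each MMP, ADAMTS and TIMP gene was well above background, by its best probe, with Fto -/- arrays in red and Fto +/+ arrays in blue. Grey lines part the role groups in the order of the text and the dashed line marks the minimum of 4 arrays; 25 genes reach it, 20 stand at 0 and 5 at 1.

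By role, detection was uneven. None of the 4 collagenase genes (Mmp1a, Mmp1b, Mmp8, Mmp13), whose products cut fibrillar collagen, was detected. Nor was Mmp12, the macrophage elastase, although all 7 macrophage markers were above background on some array. Of the gelatinases, which cut denatured collagen, Mmp2 was detected and Mmp9 was not. Mmp3 and Mmp11 were detected among the 4 stromelysin and matrilysin genes, with Mmp7 and Mmp10 not. Of 6 membrane-bound MMP genes, Mmp14, which activates the Mmp2 precursor, and Mmp17 were detected. Mmp19 and Mmp23 were detected of the other 5. Of 7 proteoglycan-cleaving ADAMTS genes 5 were detected (Adamts1, Adamts5, Adamts8, Adamts9 and Adamts15), as were Adamts2 and Adamts14 of the 3 that trim procollagen ends. Adamts7 and Adamts12, which cut cartilage oligomeric matrix protein, and Adamts13, which cuts von Willebrand factor, were not. Adamts6 and Adamts10 were detected of the other 6.

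The undetected MMP genes include most of a group of neighbours. In the reference gene table (GRCm38.p6) 10 MMP genes lie side by side with no other protein-coding gene between them, and of the 9 with a probe 1, Mmp3, was detected. Of the 41 members elsewhere, 24 were detected. Both genes of each of the 2 neighbouring ADAMTS pairs, Adamts1 with Adamts5 and Adamts15 with Adamts8, were detected. RefSeq promoter windows (GRCm38.p6, 250 bases before to 50 after the gene start) matched 35 members. These include all 9 members of the run with a probe. Every member without a window, Mmp2, Mmp9 and Adamts15 among them, thus lies outside the run, and its promoter was not read. The letters TGANTCA, which read the same on the other strand and hold the AP-1 consensus, were present for 8 members, all of the run of 10. Across 32851 promoters of all genes 7.81% hold them. Of these 8 members Mmp3 was detected and Mmp1a, Mmp1b, Mmp7, Mmp10, Mmp12, Mmp13 and Mmp20 were not. The same 8 also hold TATAAA on the strand of the gene, and 0.995% of all promoters hold both. Mmp7 and Mmp12 each had another window that held neither. A letter match is a description of the window and not a binding site. The 110 bases that end just before the gene start are shown for the detected Mmp3, for 4 undetected neighbours, and for the detected Mmp14 and Timp1 from outside the run, with TGANTCA and TATAAA in capitals, 5′ to 3′ on the gene's strand (plus in each case):
Mmp3, chr9:7445712-7445821: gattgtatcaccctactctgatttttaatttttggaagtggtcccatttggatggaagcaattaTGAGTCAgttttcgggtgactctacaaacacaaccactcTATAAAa
Mmp10, chr9:7502232-7502341: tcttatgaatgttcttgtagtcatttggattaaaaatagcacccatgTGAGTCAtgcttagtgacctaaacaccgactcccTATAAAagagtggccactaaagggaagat
Mmp1a, chr9:7464031-7464140: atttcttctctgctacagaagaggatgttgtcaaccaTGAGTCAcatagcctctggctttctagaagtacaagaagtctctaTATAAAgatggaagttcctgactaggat
Mmp13, chr9:7272404-7272513: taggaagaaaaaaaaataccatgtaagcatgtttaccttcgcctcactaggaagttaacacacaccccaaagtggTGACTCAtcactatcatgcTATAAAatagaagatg
Mmp7, chr9:7691980-7692089: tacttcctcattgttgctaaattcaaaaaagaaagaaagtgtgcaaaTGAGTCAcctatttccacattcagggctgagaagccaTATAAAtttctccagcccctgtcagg
Mmp14, chr14:54431488-54431597: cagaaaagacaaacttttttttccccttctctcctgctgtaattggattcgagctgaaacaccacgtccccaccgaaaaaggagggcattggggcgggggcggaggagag
Timp1, chrX:20870056-20870165: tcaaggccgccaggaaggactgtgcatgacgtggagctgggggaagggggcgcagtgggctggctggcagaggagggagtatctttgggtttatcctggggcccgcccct
In Mmp3 and in all 4 undetected neighbours TGANTCA stands upstream of TATAAA, with 28 (Mmp13) to 66 (Mmp1a) bases from its last letter to the gene start. This order was shared by Mmp3 and the 4 neighbours shown, while the distance of TATAAA was not. From its last letter to the gene start there was 1 base in Mmp3, against 10 (Mmp13) to 23 (Mmp10) in the 4 neighbours shown. Undetected neighbours not shown lay on both sides of Mmp3. Counted from the gene start, TATAAA began at 4 in Mmp12, -49 in Mmp1b and -58 in Mmp20, against -7 in Mmp3.

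Between genotypes, 0 of the 25 detected genes passed the threshold (limma, Benjamini-Hochberg adjusted p under 0.05 over all 25292 tested probes) in either direction, beside 1.66% of tested probes (0.842% higher and 0.814% lower in Fto -/-). The adjusted p ran from 0.109 (Mmp19) to 0.995 (Adamtsl5). Fitted differences, always Fto -/- minus Fto +/+ on the log2 scale, ran from -0.57 (Mmp14) to 0.77 (Timp1), with 12 above and 13 below 0, beside 47.4% of all tested probes above 0. Their median was -0.01, beside -0.04 over all 13050 tested genes. At an unadjusted p under 0.05 were 4 genes (Timp1, Mmp2, Mmp19 and Adamtsl3), all with higher means in Fto -/-. That is 16% of the 25, beside 19% of all tested probes. The genotypes overlapped for all 25 genes, while 12.1% of all tested probes had no overlap. For 17 genes the 95% interval of the brightest tested probe lay within a 2-fold change either way, so larger changes lie outside the intervals of these probes. Adamts8 is among the 17, though its dimmer probe had a fold interval of 1.15 to 3.53. The other 8 intervals reached further: Mmp2, Mmp3, Mmp14, Mmp19, Adamts6, Adamtsl1, Adamtsl2 and Timp1.

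**Figure D2:**
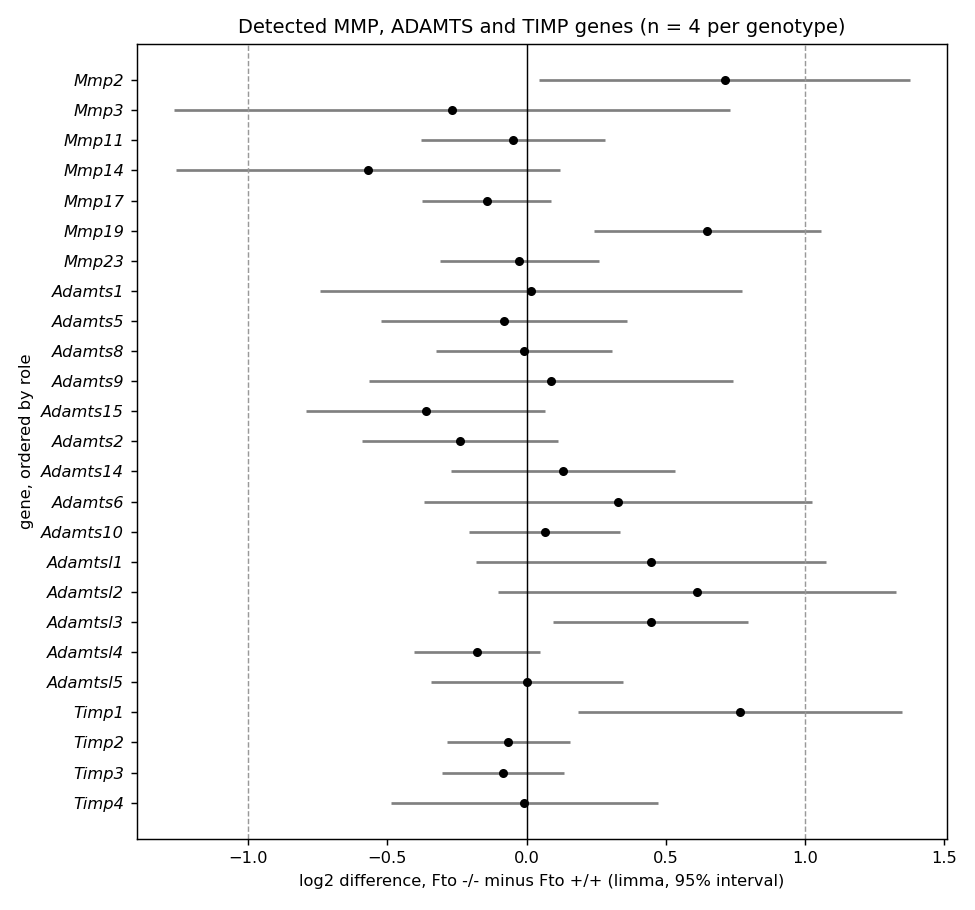
Log2 difference between Fto -/- and Fto +/+ samples (n = 4 each) for the 25 detected genes, as fitted by limma, with 95% intervals; dashed lines mark 2-fold. Intervals of Mmp2, Mmp19, Adamtsl3 and Timp1 leave out 0 before adjustment, and those of Timp2, Timp3 and Mmp23 are narrow around 0.

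Among the inhibitors, Timp1, the broad inhibitor that is induced in injury and inflammation, had the largest fitted difference of the 25 genes. Its levels were 3.83, 2.71, 3.21 and 3.31 in Fto -/- replicates 1 to 4 and 2.81, 2.03, 2.76 and 2.39 in Fto +/+ replicates 1 to 4. Fto -/- replicates 1, 3 and 4 lay above all Fto +/+ values, and replicate 2 lay below 2 of them. The means were 3.27 ± 0.46 and 2.5 ± 0.36 (SD, n = 4 each), a difference of 0.77 ± 0.26 (SE), or 1.7-fold with a 95% interval of 1.13 to 2.55, and did not pass (adjusted p = 0.162). With slide row as a block it was 0.68 (adjusted p = 0.398), and within rows 1 and 2 it was 0.44 and 0.91, in each row with 1 array of a genotype facing 3. Without the 4 arrays with Rag1 above background it was 0.05, with Fto -/- replicate 2 as the only array of its genotype.

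The brightest probes of the other TIMP genes had fitted differences near 0. Timp2, which also takes part in activating the Mmp2 precursor, spanned 8.26 to 8.49 in Fto -/- and 8.28 to 8.54 in Fto +/+ samples. Timp3, the matrix-bound inhibitor, spanned 6.68 to 6.99 and 6.9 to 7.02. Their differences were -0.06 ± 0.1 and -0.08 ± 0.1 (SE), with fold intervals of 0.821 to 1.11 and 0.811 to 1.1. A second Timp2 probe, well above background on all 8 arrays, gave 0.32 ± 0.2 (SE), with a fold interval of 0.917 to 1.7 (adjusted p = 0.405). Timp4, which is abundant in fat and heart, differed by -0.01 ± 0.21 (SE), with Fto -/- samples between 0.15 and 0.83 and Fto +/+ samples between 0.26 and 1.03. White adipocyte markers varied from -1.57 to 1.15 over the arrays (mean of 7 of 8 markers, each centred over the arrays; leptin was not detected). Fto -/- replicates 3 and 4 and Fto +/+ replicate 3 were the highest arrays both for these markers (1.15, 0.56 and 0.77) and for Timp4 (0.83, 0.77 and 1.03). The part of fat in the level of Timp4 was not tested.

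Mmp2, the constitutive gelatinase of stromal cells, had levels of 3.75, 3.18, 3.49 and 3.56 in Fto -/- replicates 1 to 4. In Fto +/+ replicates 1 to 4 it had 3.23, 2.74, 3.26 and 1.9, the last being the lowest by a wide margin. Fto -/- replicate 2 lay below 2 of the Fto +/+ values. The difference was 0.71 ± 0.29 (SE), or 1.64-fold with an interval of 1.03 to 2.6, and did not pass (adjusted p = 0.237). With slide row as a block it was 0.58 (adjusted p = 0.51), and within rows 1 and 2 it was 0.24 and 0.93. Without Fto +/+ replicate 4 the difference was 0.42, the lowest of the fits without 1 array, and without the arrays with Rag1 above background it was 0.38.

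Markers of adventitial fibroblasts shared their highest array with Mmp2 and Timp1, and their lowest with Mmp2 but not with Timp1. Timp1 was lowest in Fto +/+ replicate 2 (2.03), with 2.39 in Fto +/+ replicate 4. Of the 7 tested fibroblast markers 6 were fitted higher in Fto -/-, beside 47.4% of all tested probes, and 0 passed. The mean level of the 7 lay between -0.05 and 0.39 in Fto -/- arrays, against -0.79 to 0.2 in Fto +/+ arrays. Fto +/+ replicate 4 had the lowest level of these markers and of Mmp2, and Fto -/- replicate 1 the highest of these markers, of Mmp2 and of Timp1. Macrophage markers (6 of 7 tested) lay between -0.42 and 0.85 in Fto -/- arrays, against -1.29 to 0.36 in Fto +/+ arrays, with the same arrays at the ends. Brown adipocyte markers (8 of 9 tested) lay between -0.32 and 1.39 in Fto -/- arrays, against -1.21 to -0.12 in Fto +/+ arrays. Their part in the differences of Mmp2 and Timp1 was not tested.

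**Figure D3:**
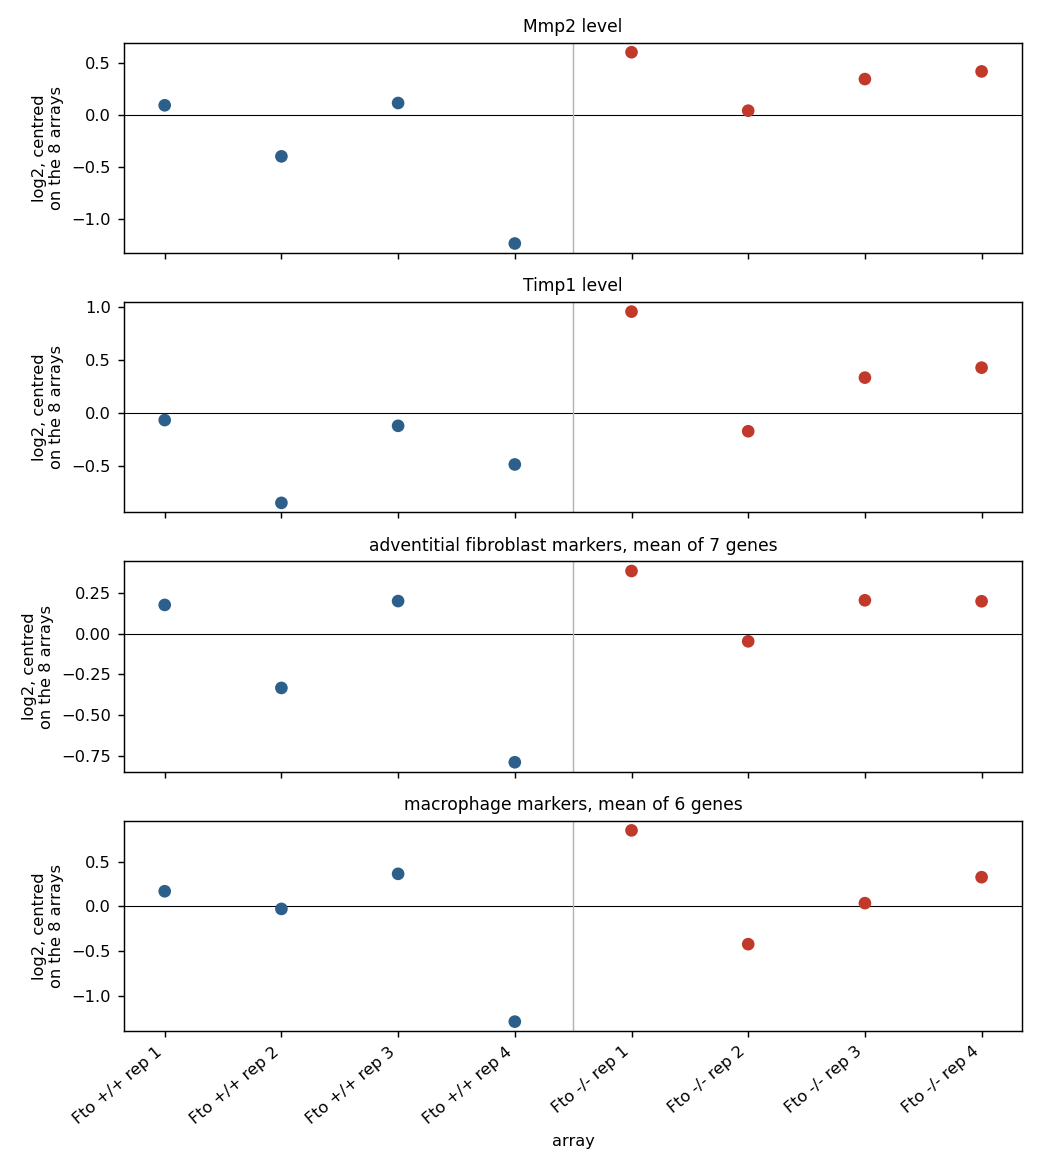
Levels of Mmp2 and Timp1 and the mean levels of adventitial fibroblast and macrophage markers in each array (log2, centred on the 8 arrays), Fto +/+ in blue and Fto -/- in red. Fto +/+ replicate 4 is lowest for Mmp2 and for both marker lists, and Fto -/- replicate 1 is highest in all 4 panels.

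Mmp3, the stromelysin that cuts proteoglycans and activates other MMPs, varied most between arrays of all 25 genes, 4.22-fold from the lowest to the highest. It read 1.9, 2.98, 3.04 and 2.71 in Fto -/- replicates 1 to 4, and 3.74, 3.27, 1.66 and 3.04 in Fto +/+ replicates 1 to 4. The highest and the lowest value were both from Fto +/+ samples, and the difference of -0.27 ± 0.44 (SE, adjusted p = 0.771) left an interval of 0.415- to 1.66-fold. The value was -0.52 with slide row as a block, -1.1 within row 1 and 0.054 within row 2. Leaving out replicate 1 of Fto -/- gave -0.02, while leaving out replicate 1 or 3 of Fto +/+ gave 0.0023 or -0.69. The sign was opposite, at 0.17, without the arrays with Rag1 above background. Mmp11, another secreted member, differed by -0.05 ± 0.15 (SE).

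Mmp14, the membrane-bound activator of the Mmp2 precursor, had the lowest fitted difference. Its levels were -1.02, -1.72, -1.55 and -2.01 in Fto -/- replicates 1 to 4. In Fto +/+ replicates 1 to 4 they were -0.79, -1.85, -0.65 and -0.72. Replicate 2 of Fto +/+ lay among the Fto -/- values, while the other Fto +/+ samples lay above all of them. The difference was -0.57 ± 0.3 (SE, adjusted p = 0.345), which does not pass, and opposite in sign to that of Mmp2. With slide row as a block it was -0.79 (adjusted p = 0.376), within rows 1 and 2 it was -0.64 and -0.93, and without the arrays with Rag1 above background it was -0.99. Mmp17, a membrane-anchored MMP of smooth muscle, differed by -0.14 ± 0.1 (SE), with Fto -/- samples between 3.33 and 3.57 and Fto +/+ samples between 3.45 and 3.72.

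Mmp19, a secreted MMP without a close relative in the family, had the smallest p of the 25 genes. It read -2.41, -2.89, -2.23 and -2.18 in Fto -/- replicates 1 to 4 and -2.86, -3.29, -2.93 and -3.23 in Fto +/+ replicates 1 to 4. Only Fto -/- replicate 2 lay within the Fto +/+ range. The probe was dim, well above background on all 4 Fto -/- but on 2 of the 4 Fto +/+ arrays. The difference was 0.65 ± 0.18 (SE), 1.57-fold with an interval of 1.18 to 2.08, and did not pass (adjusted p = 0.109). It passed with array weights (0.67, adjusted p = 0.0367), a setting that called 777 probes higher and 847 lower. With slide row as a block it was 0.66 (adjusted p = 0.282), within rows 1 and 2 it was 0.35 and 0.97, and without the arrays with Rag1 above background it was 0.11. With normexp background correction it was 0.25. Mmp23 differed by -0.03 ± 0.12 (SE).

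**Figure D4:**
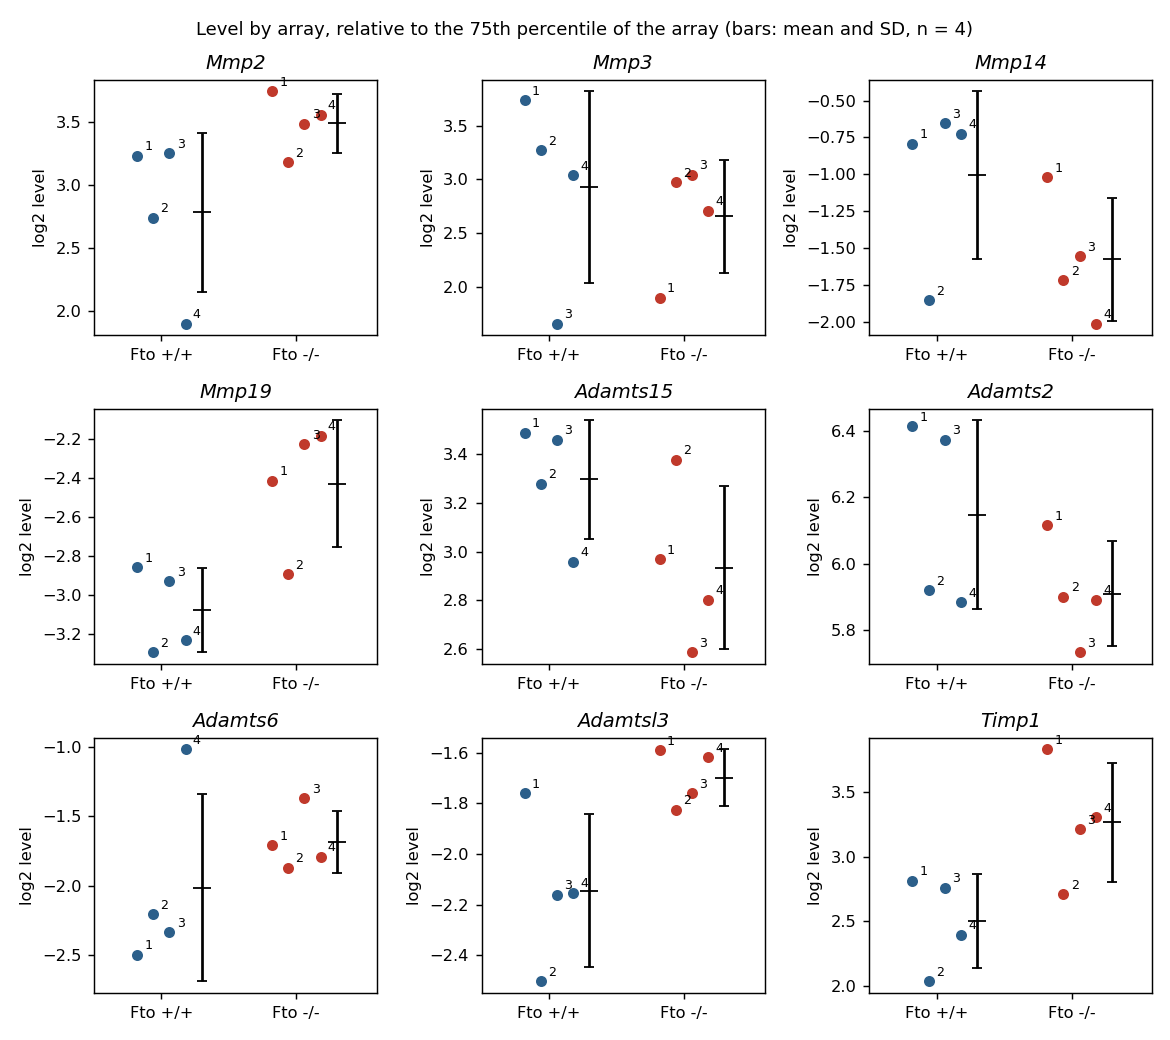
Log2 level of 9 genes in each array, with points numbered by replicate, Fto +/+ in blue and Fto -/- in red, and bars for the mean and SD (n = 4). The genotypes overlap in all 9 panels; Mmp19 and Timp1 overlap through Fto -/- replicate 2, and Adamtsl3 through Fto +/+ replicate 1 and Fto -/- replicate 2.

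Among the proteoglycan-cleaving ADAMTS genes Adamts15, a versicanase, had the smallest p. It read 2.97, 3.38, 2.59 and 2.8 in Fto -/- replicates 1 to 4 and 3.49, 3.28, 3.46 and 2.96 in Fto +/+ replicates 1 to 4. The groups overlapped, and the difference of -0.36 ± 0.19 (SE) did not pass (adjusted p = 0.333). It was -0.47 with slide row as a block and -0.51 and -0.43 within the rows, and its sign turned, at 0.074, without the arrays with Rag1 above background. Adamts1, Adamts5 and Adamts9, which cut aggrecan or versican, differed by 0.02 ± 0.33, -0.08 ± 0.19 and 0.09 ± 0.29 (SE). Adamts1 lay between 4.41 and 5.5 in Fto -/- samples and between 4.31 and 5.65 in Fto +/+ samples, and replicate 2 of each genotype was the highest.

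Adamts8, the neighbour of Adamts15, was read by 2 probes whose fitted differences were far apart. The brighter one read 3.34, 3.37, 3.36 and 3.36 in Fto -/- replicates 1 to 4 and 3.43, 2.97, 3.43 and 3.63 in Fto +/+ replicates 1 to 4. It differed by -0.01 ± 0.14 (SE). The dimmer one, named by the same transcript accession and well above background on 7 arrays, read -1.24, -1.71, -1.38 and -1.79 in Fto -/- and -2.35, -3.61, -2.48 and -1.72 in Fto +/+ replicates 1 to 4, a difference of 1.01 ± 0.35 (SE, adjusted p = 0.182). Within arrays, the dimmer minus the brighter probe was -4.89 ± 0.27 in Fto -/- and -5.9 ± 0.51 in Fto +/+ (SD, n = 4 each), with no overlap. The exact two-sided permutation p was 0.0286, and 0.171 after Benjamini-Hochberg adjustment over the 6 genes with 2 tested probes, which is above the threshold. Since 0.0286 is the smallest p that 4 against 4 can give, 1 gene alone at that p could not pass an adjustment over 6 genes, so the adjusted value says nothing about stability. Of the 5 other genes, the difference between probes was 0.38 for Timp2 (adjusted permutation p = 0.171) and from -0.2 to 0.05 for Adamts2, Adamts5, Adamtsl5 and Mmp11 (adjusted permutation p 0.171 to 0.657). Adamts8 and this comparison of probes were chosen after the values were seen.

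Adamts2, which removes the amino-terminal propeptide of fibrillar procollagens, read 6.11, 5.9, 5.73 and 5.89 in Fto -/- replicates 1 to 4. It read 6.41, 5.92, 6.37 and 5.88 in Fto +/+ replicates 1 to 4, so that replicates 1 and 3 of Fto +/+ stood above all other arrays. The difference was -0.24 ± 0.15 (SE, adjusted p = 0.432), and its second, much dimmer probe gave -0.44 (adjusted p = 0.308). With slide row as a block it was -0.33, -0.5 and -0.17 within the rows, and -0.32 without the arrays with Rag1 above background. Adamts14, which does the same work, differed by 0.13 ± 0.18 (SE). Adamts6, linked to microfibrils and heart development, read -1.71, -1.87, -1.37 and -1.79 in Fto -/- and -2.5, -2.21, -2.34 and -1.02 in Fto +/+ replicates 1 to 4. Its highest value was thus from Fto +/+ replicate 4, while the other Fto +/+ arrays were the lowest. The difference of 0.33 ± 0.31 (SE, adjusted p = 0.59) was 0.66 (adjusted p = 0.0532) without that array and did not pass. Leaving out replicate 1 or 3 of Fto +/+ instead gave 0.17 or 0.22. The rows alone gave 0.85 and 0.06, and the fit without the arrays with Rag1 above background gave 0.079. Its relative Adamts10 differed by 0.07 ± 0.12 (SE).

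Of the ADAMTS-like genes, Adamtsl3 read -1.59, -1.83, -1.76 and -1.62 in Fto -/- replicates 1 to 4 and -1.76, -2.5, -2.16 and -2.15 in Fto +/+ replicates 1 to 4. Fto +/+ replicate 1 lay within the Fto -/- range, and Fto -/- replicate 2 within the Fto +/+ range. The difference was 0.45 ± 0.15 (SE), 1.36-fold with an interval of 1.07 to 1.74 (adjusted p = 0.175). With slide row as a block it was 0.34 (adjusted p = 0.447), 0.04 within row 1 and 0.65 within row 2, and 0.2 without the arrays with Rag1 above background. Adamtsl2 and Adamtsl1 differed by 0.61 ± 0.31 and 0.45 ± 0.28 (SE, adjusted p 0.327 and 0.41). Adamtsl2, which binds fibrillin and a latent TGF-beta binding protein, lay between 0.29 and 1.08 in Fto -/- samples, against -0.52 to 0.86 in Fto +/+ samples. Adamtsl4, known from inherited lens dislocation, and Adamtsl5 differed by -0.18 ± 0.1 and 0 ± 0.15 (SE). Over the 25 genes the SD was larger among Fto +/+ than among Fto -/- samples for 21 (84%), beside 56.9% of all tested genes; this was not tested.

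The genes around the family were read the same way. Of 11 tested activators and other inhibitors, among them Plat (tissue plasminogen activator), Furin and Reck, 0 passed, and 0 were at an unadjusted p under 0.05 in limma. The 2 of smallest p were Hpn, a membrane serine protease gene (0.24 ± 0.11 SE, adjusted p = 0.273), and Serpine2, an inhibitor of thrombin and plasminogen activators (-0.38 ± 0.17 SE, adjusted p = 0.275). Of 18 tested matrix substrates 1 fell, the brevican gene Bcan (-2.19 ± 0.41 SE, adjusted p = 0.0444), beside 0.814% of tested probes called lower, with a list median of -0.08. Of these 18, 7 were at an unadjusted p under 0.05 in limma, beside 19% of all tested probes. Besides Bcan these were Fn1 (fibronectin) and Col4a2 (a basement membrane collagen) at -0.45 and -0.35, and Comp (cartilage oligomeric matrix protein) at 0.72. Of the 18, just Bcan and those 3 had no overlap between genotypes, beside 12.1% of all tested probes. Fn1, Col4a2 and Comp did not pass in limma (adjusted p 0.0879, 0.151 and 0.161). Thbs1 at -1.4, Lum at 0.93 and Col1a2 at 0.28 overlapped and did not pass either (adjusted p 0.124, 0.24 and 0.257). Bcan was named by the threshold, from a list that was itself chosen with earlier results of these data known. The others were named after their values were seen. The call of Bcan was lost without each of Fto -/- replicates 1 to 4 and Fto +/+ replicates 2 to 4. It was also lost when slide row was a block (-1.82, adjusted p = 0.164). Bcan is a substrate of Adamts4, which was on 1 array, and of Adamts5.

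Of 8 tested membrane-bound ADAM proteases, the relatives without thrombospondin repeats, 1 rose in Fto -/-: Adam8, a metalloproteinase gene best known in leukocytes and osteoclasts. It read -0.26, -0.16, -0.66 and -0.83 in Fto -/- replicates 1 to 4 and -1.49, -1.55, -1.48 and -1.55 in Fto +/+ replicates 1 to 4. All Fto -/- arrays lay above all Fto +/+ arrays, which differed from each other by little (SD 0.04, n = 4, against 0.32 in Fto -/-). The difference was 1.04 ± 0.15 (SE), 2.06-fold, with adjusted p = 0.0212, beside 0.842% of tested probes called higher. With normexp background correction it was 0.65 (adjusted p = 0.0185). It lost the call, at adjusted p from 0.0531 to 0.0596, without Fto -/- replicate 1 or Fto +/+ replicates 1, 2 or 3, and when slide row was a block (0.92, adjusted p = 0.0988); within rows 1 and 2 it was 1.13 and 0.7. Without the arrays with Rag1 above background it was 1.35 (adjusted p = 0.285). Macrophage markers overlapped between the genotypes, as given above, and of 6 neutrophil markers on the array S100a8 and Ngp were on 0 arrays, with the 3 tested ones between -0.84 and 0.15 in Fto -/- arrays, against -0.23 to 0.51 in Fto +/+ arrays. T cell and thymocyte markers (9 of 11 tested) lay between -1.32 and 1.87 in Fto -/- arrays, against -1.8 to 1.67 in Fto +/+ arrays. Of 6 chondrocyte markers 2 were tested, Sox9 and Acan, with Col2a1, Matn3 and Col9a1 on 0 arrays. Their mean was 0.07 to 0.62 in Fto -/- arrays against -0.49 to -0.14 in Fto +/+ arrays. Sox9 was well above background on 4 Fto -/- and 0 Fto +/+ arrays, so it was tested only through the genotype where it read higher. Acan overlapped, at -1.37 to -0.85 in Fto -/- against -2.11 to -0.7 in Fto +/+ arrays. Of all tested probes 12.1% had no overlap. Contractile smooth muscle markers (7 of 7 tested) were at -0.2 to 0.04 against 0.04 to 0.3. The part of these cell types in the difference of Adam8 was not tested.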

How the data were processed

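Per the file headers, the deposited scanner files hold background-subtracted intensity values per spot from Agilent Feature Extraction 11.0.1.1, not normalised between arrays. They also hold flags of the scanner software, and the array is annotated on mm9, so coordinates come only from the RefSeq promoter table (GRCm38.p6). The deposited series table holds log2 values centred per probe, as found from the values; no header or label says how arrays were normalised there. The 8 arrays shared 1 slide and 1 scan date, with slide rows unevenly filled: row 1 held Fto -/- replicates 1 to 3 and Fto +/+ replicate 1.

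Control spots were left out, outlier spots set to missing and spots of a probe averaged. Levels are log2 intensity minus the array's 75th percentile over non-control spots. Probes were named through RefSeq accessions (28325 of 55681). Probes well above background on at least 4 arrays were compared with limma 3.58.1 (lmFit, eBayes; R 4.3.3), which was tested on simulated data. The brightest tested probe stood for a gene. Fto and probe pairs were compared by exact two-sided permutation tests. The number of arrays limits the precision.

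Values per sample are given for members at an unadjusted p under 0.05, else for the member of smallest p of each role group, and for Adamts8. Of the related lists, up to 4 genes past the threshold are named, else the 2 of smallest p. Other genes are given by range or difference and were named after their values were seen. Members, lists and alternatives were chosen with earlier results of these data known.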

Additional observations from a re-analysis of the deposited data

Results flagged for a closer look

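Of 60 groups of 4 arrays checked (the 25 detected genes, Fto and 4 related genes in each genotype), 2 held an array that stood apart from the other 3, and chance gives about 3 (1 in 20). The Mmp14 level of Fto +/+ replicate 2 was -1.85, while the other Fto +/+ arrays lay between -0.79 and -0.65. The Timp3 level of Fto +/+ replicate 1 was 7.02, while the others all read 6.9, so the distance was small in size.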

How the results depend on the processing

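Across the 23 alternatives, the count of members higher in Fto -/- remained 0 except with array weights, where it was 1 (Mmp19), and the count lower remained 0 in all. Between 24 and 30 members were detected with the stricter and the laxer filter on dim probes, and the members' median ran from -0.1 to 0.05. Mmp3 turned to 0.17 without the arrays with Rag1 above background and 0.054 within slide row 2 and ran from -0.69 to 0.0023 in the fits without 1 array; Adamts15 turned to 0.074 without the Rag1 arrays. The other 7 members named by the rule kept their sign in every alternative that gave a value; Mmp19 was not tested with detection on all 8 arrays.

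Over all probes, 213 higher and 206 lower became 61 and 35 with no filter, 96 and 72 with detection on at least 1 array, 33 and 13 with slide row as a block, 777 and 847 with array weights, 0 and 0 without the Rag1 arrays (2294 at an unadjusted p under 0.05 in limma), 0 and 0 within row 1 (2111) and 1 and 0 within row 2 (1391). Without 1 array they ran from 55 to 499 and from 46 to 387, highest without Fto +/+ replicate 4. Related genes numbered 1 higher (Adam8) and 1 lower (Bcan). Without Fto -/- replicate 1 the lower count was also 1, though Bcan had lost its call, so another related gene was counted there. Both counts were 0 with no filter, with either block, without the Rag1 arrays and within each row, and 0 to 1 without 1 array; the lower count was also 0 with detection on at least 1 array. Fto differed by -2.66 without the Rag1 arrays and -3.02 and -3.33 within the rows, past no threshold. Causes were not tested.

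Deviations of same-numbered arrays from their group means had correlations of 0.155, -0.0234, -0.0188 and -0.0407 for replicates 1 to 4. For replicate 1, and not for replicates 2 to 4, the same-numbered Fto +/+ array was the best match. The labels do not say whether the numbers pair samples, and these correlations cannot settle it. With the replicate number as a block 90 probes were higher and 42 lower, and 0 members passed. Normexp on mean signals was not run, since the columns used here hold medians; the normexp fit on median signals and the fits within rows were chosen after seeing the data. Signal over background limits 25 of the 50 members.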
